A study of Homo sapiens with 16 samples.

Results

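The 50 genes described here act in mitotic entry, at the centromere and kinetochore, in chromosome structure, on the spindle and in cytokinesis. They were taken by symbol from a list, and each symbol matched 1 gene of the 60612 in the deposited table. All 50 passed the low-count filter that left 17950 genes for testing, so no member was lost to it. The cells were NCI-H1944, an established human lung adenocarcinoma line, and RNA was sequenced in 16 libraries. Each of 4 genotypes was sampled in 2 libraries after DMSO and 2 libraries after MPS1i, which is BAY-1217389, an inhibitor of the spindle checkpoint kinase MPS1 (gene TTK).

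The genotypes were SCR, labelled WT, STINGsg, labelled STING knockout, MAVSsg, labelled MAVS knockout, and DKO, labelled STING/MAVS knockout. STING and MAVS are adaptor proteins of the innate sensing of cytosolic DNA and RNA. Cells of all 8 groups were exposed for 48 h, to 100 nM MPS1i or to DMSO, and harvested after 24 h of further culture without the drug. The measurements therefore describe cells 24 h after release from the inhibitor, not cells under it. The labels do not say whether a line was a clone or a pool. Whether the 2 replicates of a group came from separate cultures is not stated either. Each p-value below therefore rests on the spread among these libraries, which may be technical.

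A cell enters mitosis when cyclin B binds CDK1 and the CDC25 phosphatases remove inhibitory phosphates from it, while Aurora A, its activator BORA and Polo-like kinase 1 promote the same switch. MASTL (Greatwall) keeps the counteracting phosphatase PP2A-B55 inhibited. Kinetochores built on CENP-A chromatin attach chromosomes to the spindle, the anaphase-promoting complex (APC/C) with CDC20 triggers the loss of cohesion, and the cleavage furrow divides the cell. Transcripts of most of these genes rise in G2 and mitosis. Their promoters are known for CCAAT boxes, bound by NF-Y, and for the cell cycle genes homology region (CHR), bound by the MuvB core of the DREAM and B-Myb complexes.

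Promoter sequences are shown for 6 of the genes, each the first by adjusted p in SCR of its functional group among those with an entry in the RefSeq promoter table (GRCh38.p14). Each runs 5′ to 3′ on the strand of the gene and covers the last 120 bases before the annotated start. Capitals mark CCAAT or its reverse complement ATTGG, and the CHR form TTTGAA or its reverse complement TTCAAA.
PRR11 (chr17:59155626-59155745, plus strand): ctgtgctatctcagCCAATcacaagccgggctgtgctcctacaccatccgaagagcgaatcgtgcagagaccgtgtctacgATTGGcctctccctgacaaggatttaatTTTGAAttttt
CIT (chr12:119877321-119877440, minus strand): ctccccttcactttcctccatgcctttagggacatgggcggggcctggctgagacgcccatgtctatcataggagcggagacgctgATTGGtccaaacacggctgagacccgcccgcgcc
TOP2A (chr17:40417897-40418016, minus strand): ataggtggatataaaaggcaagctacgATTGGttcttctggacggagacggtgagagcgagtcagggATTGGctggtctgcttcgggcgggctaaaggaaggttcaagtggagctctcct
NEK2 (chr1:211675622-211675741, minus strand): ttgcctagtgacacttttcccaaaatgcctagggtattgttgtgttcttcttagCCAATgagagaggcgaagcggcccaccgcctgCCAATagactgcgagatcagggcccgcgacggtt
CENPF (chr1:214603075-214603194, plus strand): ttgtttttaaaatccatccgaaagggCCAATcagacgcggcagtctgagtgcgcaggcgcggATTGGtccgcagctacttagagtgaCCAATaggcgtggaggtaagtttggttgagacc
CDC20 (chr1:43358861-43358980, plus strand): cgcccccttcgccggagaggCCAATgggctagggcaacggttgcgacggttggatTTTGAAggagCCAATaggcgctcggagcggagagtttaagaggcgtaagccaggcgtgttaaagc

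All 6 stretches hold at least 1 CCAAT box, and PRR11 and CDC20 also hold TTTGAA. Over the whole promoter window of 250 bases before to 50 bases after the start, 43 of the 50 genes had an entry. TTTGAA on either strand was found in 29 of these 43 windows (67.4%), against 15.2% of all 35116 promoters in the table and 10.2% of the 11910 that belong to tested genes. CCAAT on either strand was found in 31 (72.1%), against 34.6% of all promoters and 37.2% of those of tested genes. Both motifs were found in 22 (51.2%), against 5.9% and 4.39%. With the related form TTTAAA counted as well, 34 of the 43 (79.1%) held a CHR form, against 24% and 16.5%. A CCAAT box and a CHR form can overlap by at most 1 letter. A match describes letters in a window and not a bound site. CDC25B, CDC25C, CENPI and MYBL2 held none of these motifs in the window. Only 1 start per gene was searched, so motifs outside its window or at other starts would be missed.

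Across the libraries, total counts ran from 19893784 to 49769938. The first principal component of all tested genes held 39.7% of the variance. STING1 was at 3.7 to 5.99 CPM (counts scaled to a common library total) in STINGsg and at 4.04 to 4.9 in DKO, against 8.25 to 29.1 in SCR. MAVS RNA in MAVSsg, at 150 to 196 CPM, was no lower than the 119 to 189 in SCR, so RNA does not check that label. Of the lung epithelium markers, KRT8, KRT18, KRT7 and CDH1 were present, EPCAM was at 2.18 to 5.69 CPM, and NKX2-1, SFTPB, SFTPC and KRT19 were at or near 0. Of 10 immune markers, PTPRC and CD3E stayed at or under 0.131 CPM, NKG7 had no counts, and the list's sum of 71.2 to 558 CPM came almost wholly from CD68. Of the 5 immune markers that were tested, 3, 3, 3 and 1 were higher after MPS1i in SCR, STINGsg, MAVSsg and DKO. Over all tested genes, 26%, 15.5%, 17.1% and 6.53% were higher. In SCR, 1 of the 5 was lower, against 24% of all genes, and in the other lines 0 were. CD68, a lysosomal protein of macrophages, moved with the treatment. It was at 70.1 and 80 CPM against 529 and 556 in SCR, at 89.5 and 84.8 against 192 and 204 in STINGsg, at 107 and 94.4 against 289 and 293 in MAVSsg, and at 116 and 104 against 135 and 126 in DKO. Its log2 fold changes were 2.86 ± 0.07, 1.18 ± 0.07, 1.52 ± 0.07 and 0.25 ± 0.07, each past the test, and their part in the results below was not tested. The 10 stromal and endothelial markers summed to 27.4 to 50.4 CPM. Of the 4 of these that were tested, 3, 2, 1 and 1 were higher after MPS1i in SCR, STINGsg, MAVSsg and DKO, and 0 lower.

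Nearly all 50 genes were lower 24 h after MPS1i in each of the 4 genotypes. In SCR, 49 fell and 1 rose by edgeR's quasi-likelihood test (Benjamini-Hochberg adjusted p under 0.05), where 24% of all 17950 tested genes fell and 26% rose. In STINGsg, 48 fell, 1 rose and 1 did not pass the test, against 13.9% of all genes lower and 15.5% higher. In MAVSsg, 49 fell and 1 rose, against 16.3% and 17.1%. In DKO, all 50 fell, against 8.22% lower and 6.53% higher.

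A set of 48 genes fell in all 4 genotypes, which held for 4.51% of all tested genes. The median log2 fold change of the 50 was -0.94 in SCR, -0.74 in STINGsg, -0.73 in MAVSsg and -0.76 in DKO, beside medians over all tested genes of 0.03, 0, 0.02 and 0. In SCR, 24 of the 50 were at least 2-fold lower, against 2.99% of all genes. The corresponding numbers were 11 in STINGsg (1.65% of all genes), 12 in MAVSsg (1.06%) and 5 in DKO (0.323%). In bulk RNA, fewer cells in G2 and mitosis and less RNA of these genes per cell cannot be told apart.

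The separation was complete at the level of single libraries for most of them. Both MPS1i libraries lay below both DMSO libraries for 49 of the 50 in SCR (35.1% of all genes), 49 in STINGsg (31.1%), 49 in MAVSsg (31.9%) and 50 in DKO (24.8%). The exception in the first 3 genotypes was MASTL. Summed over the 50 genes, the level in SCR went from 6888 ± 129 CPM (SD, n = 2) after DMSO to 3554 ± 77.1 after MPS1i, which is 51.6% of the DMSO level. It went from 5987 ± 7.07 to 3564 ± 46 CPM in STINGsg (59.5%) and from 6187 ± 231 to 3741 ± 25.5 in MAVSsg (60.5%). In DKO it went from 6696 ± 402 to 3860 ± 31.8 CPM (57.6%). The DKO DMSO libraries spread most, at 6412 and 6981 CPM.

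**Figure D1:**
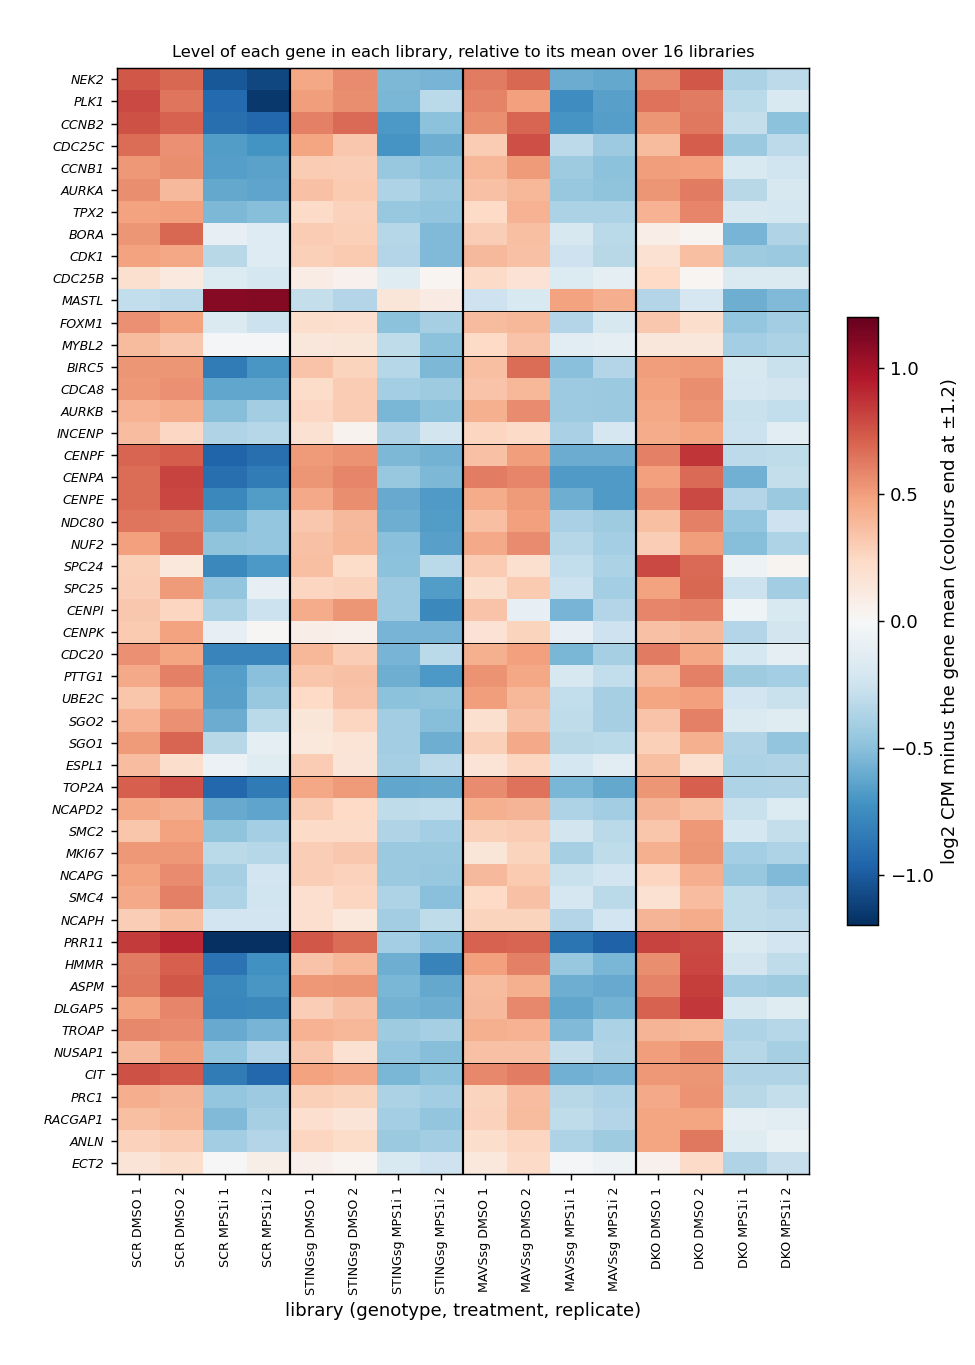
Level of each of the 50 genes in each of the 16 libraries, as log2 CPM minus the gene's mean over the libraries, with genes grouped by role and colours ending at ±1.2. DMSO libraries are red and MPS1i libraries are blue for nearly every gene, and MASTL shows the opposite in SCR, STINGsg and MAVSsg.

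Levels per kilobase of merged exons (GENCODE release 29, all 50 genes matched) spread widely under DMSO in SCR. CDC25C was lowest at 2.03 CPM per kilobase, the median was 17.75, and TOP2A was highest at 96.8. ECT2 followed at 87.5, MKI67 at 70.3, TPX2 at 64.9 and CCNB1 at 60.6. Of these, ECT2 had the smallest fall of the 50 genes in SCR and TOP2A one of the largest. A relation between level and fall over the 50 was not tested.

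Among the 11 genes of mitotic entry, 10 fell in SCR, 9 in STINGsg, 10 in MAVSsg and 11 in DKO. Their median log2 fold changes were -1.11, -0.74, -0.85 and -0.71. NEK2, a centrosomal kinase that splits centrosomes, was at 89.6 and 86.1 CPM in the SCR DMSO libraries and at 26.4 and 25.2 after MPS1i. It was at 74.1 and 79.3 against 36.9 and 36.5 in STINGsg, at 82.7 and 86.1 against 35.5 and 35.1 in MAVSsg, and at 79.9 and 89.6 against 41.2 and 43.2 in DKO. No MPS1i library reached a DMSO library, and the 2 SCR libraries after MPS1i were the lowest of all 16. The log2 fold change (± standard error) was -1.77 ± 0.06 in SCR, -1.06 ± 0.06 in STINGsg, -1.26 ± 0.06 in MAVSsg and -1.01 ± 0.06 in DKO, with adjusted p from 4.1e-18 to 2.5e-11.

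PLK1, the Polo-like kinase that activates CDC25C and recruits spindle proteins, was at 117 and 105 CPM in SCR after DMSO and at 35.4 and 30.2 after MPS1i. Its levels after MPS1i were 46 and 53.7 CPM in STINGsg, 40.2 and 42.9 in MAVSsg and 53.9 and 59.3 in DKO, beside DMSO levels of 95 to 106 in these lines. The fall was 3.4-fold in SCR, 1.96-fold in STINGsg, 2.38-fold in MAVSsg and 1.85-fold in DKO. CCNB1, the cyclin that activates CDK1, was at 153 and 157 CPM in SCR after DMSO and at 67.6 and 68.2 after MPS1i, a log2 fold change of -1.19 ± 0.05 (adjusted p = 1.2e-16). Its log2 fold changes elsewhere were -0.77 ± 0.05, -0.91 ± 0.05 and -0.7 ± 0.05 in STINGsg, MAVSsg and DKO. CCNB2, the other mitotic B cyclin, fell 3.18-fold in SCR (42.8 and 41.2 CPM against 13.4 and 13.1) and 1.95-fold in DKO (36.2 and 39.1 against 20.6 and 17.9).

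For CDK1, the kinase that these cyclins activate, no tested difference in treatment effect between genotypes passed. The effects in STINGsg and MAVSsg were not tested against each other. It was at 95.5 and 94 CPM against 54.3 and 61.3 in SCR, at 83.1 and 84.9 against 53.5 and 47.3 in STINGsg, at 89.4 and 86.9 against 57.5 and 54.4 in MAVSsg, and at 77.5 and 87.5 against 50.9 and 50.3 in DKO. Its log2 fold changes were -0.71 ± 0.06, -0.74 ± 0.07, -0.66 ± 0.07 and -0.71 ± 0.07. In level, CDK1 was lower than in SCR in DKO under DMSO (-0.2 ± 0.06, adjusted p = 0.02) and, after MPS1i, in STINGsg (-0.2 ± 0.07, adjusted p = 0.024) and DKO (-0.19 ± 0.07, adjusted p = 0.022). AURKA and its spindle cofactor TPX2 fell 2.15-fold and 2.01-fold in SCR, and between 1.63-fold and 1.8-fold in the other lines. BORA, the activator through which Aurora A acts on PLK1, fell 1.66-fold in SCR and 1.44-fold in DKO.

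The phosphatases that activate CDK1 differed from each other. CDC25C, at 7.04 and 6.48 CPM in SCR after DMSO and 2.78 and 2.69 after MPS1i, fell 2.47-fold in SCR and between 1.89-fold and 2.07-fold in the other lines. CDC25B, at 140 and 133 CPM against 110 and 106 in SCR, fell only 1.26-fold. In STINGsg, CDC25B was at 131 and 127 CPM after DMSO and at 111 and 125 after MPS1i, a log2 difference of -0.13 ± 0.06 (adjusted p = 0.12). The call depended on the choice of libraries: it passed with only the STINGsg groups in the fit (adjusted p = 0.037) and without the second STINGsg MPS1i library (-0.23, adjusted p = 0.033).

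MASTL was the only one of the 50 genes that rose, and it did so in 3 of the 4 genotypes. It was at 49.5 and 48.7 CPM in the SCR DMSO libraries and at 129 and 130 after MPS1i. In STINGsg it was at 49.7 and 47.6 against 67.2 and 65, and in MAVSsg at 51.1 and 53.4 against 84.9 and 81.9. In DKO the order was turned, with 47.4 and 52.6 CPM after DMSO and 40.3 and 41.9 after MPS1i. The groups did not overlap in any genotype, and the 4 DMSO groups lay between 47.4 and 53.4 CPM.

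The rise of MASTL was 1.4 ± 0.05 on the log2 scale in SCR (2.64-fold, adjusted p = 4.3e-17), 0.44 ± 0.06 in STINGsg (adjusted p = 2.2e-06) and 0.68 ± 0.06 in MAVSsg (adjusted p = 5.9e-10). In DKO it fell, with a log2 fold change of -0.29 ± 0.06 (adjusted p = 0.0012). The difference in treatment effect between DKO and SCR was -1.69 ± 0.08 (adjusted p = 1e-14), between DKO and STINGsg -0.73 ± 0.08 (adjusted p = 7.8e-07) and between DKO and MAVSsg -0.96 ± 0.08 (adjusted p = 3.1e-09). MASTL lies on chromosome 10, at 27154824 to 27187953 on the plus strand, and overlaps YME1L1 and ACBD5 on the other strand. YME1L1 had log2 differences of 0.02, 0.02, -0.01 and 0.01 in the 4 genotypes and passed in none. ACBD5 passed only in DKO, at -0.2 (adjusted p = 0.016).

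**Figure D2:**
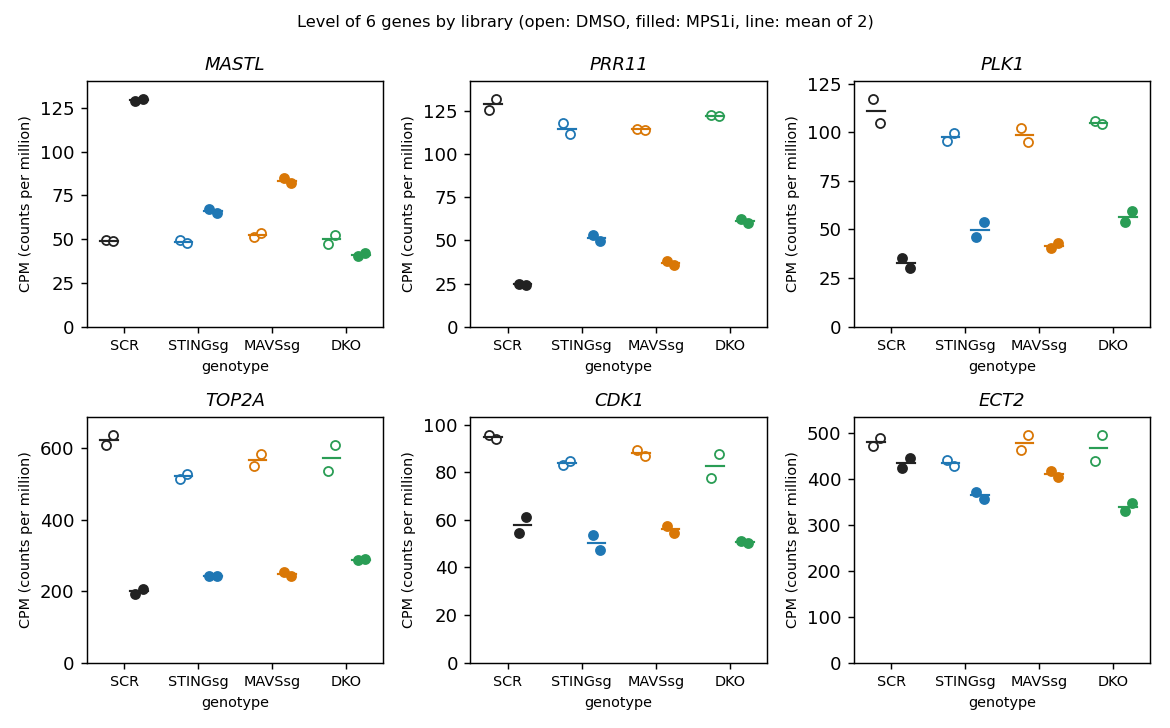
CPM of 6 of the genes in every library, with genotypes along the horizontal axis, open points for DMSO, filled points for MPS1i and a line at the mean of 2 libraries. MASTL is higher after MPS1i in SCR at 129 and 130 CPM and lower in DKO, PRR11 has the lowest filled points in SCR at 24.9 and 24.4 CPM, and the CDK1 points after MPS1i lie between 47.3 and 61.3 CPM in all genotypes.

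Both transcription factors that act on these promoters fell in every genotype. FOXM1, which activates late cell cycle promoters, was at 180 and 172 CPM against 109 and 103 in SCR, at 143 and 142 against 87.9 and 93.3 in STINGsg, at 160 and 163 against 96.5 and 108 in MAVSsg, and at 154 and 143 against 89.3 and 92.1 in DKO. Its log2 fold changes were -0.74 ± 0.05, -0.65 ± 0.06, -0.65 ± 0.06 and -0.72 ± 0.06. MYBL2, which encodes the B-Myb partner of the MuvB core, went from 49.4 and 47.5 CPM to 37.4 in both libraries in SCR, a log2 fold change of -0.37 ± 0.06 (adjusted p = 1.8e-05). It was -0.54 ± 0.07 in STINGsg, -0.41 ± 0.07 in MAVSsg and -0.53 ± 0.07 in DKO. These falls were smaller than the median of the 50 genes in all 4 genotypes.

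All 4 genes of the chromosomal passenger complex, which corrects faulty attachments of chromosomes and later marks the midzone, fell in every genotype, with medians of -1.02, -0.71, -0.87 and -0.73. BIRC5 (survivin) was at 68.2 and 68.3 CPM against 26.4 and 29.1 in SCR and at 66.6 and 67.3 against 41.2 and 39.3 in DKO. CDCA8 (borealin) was at 28.4 and 29 against 12.9 in both libraries in SCR and at 27.8 and 29.2 against 17.3 and 17 in DKO. The fall of BIRC5 was 2.46-fold in SCR and 1.66-fold in DKO, and that of CDCA8 2.23-fold and 1.67-fold. AURKB, the kinase of the complex, ranged from 1.72-fold lower in DKO to 1.9-fold lower in MAVSsg. INCENP, its scaffold, fell least of the group, from 1.33-fold in STINGsg to 1.59-fold in SCR.

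All 9 centromere and kinetochore genes fell in every genotype, with medians of -1.06, -0.98, -0.84 and -0.85. CENPF, a large protein of the outer kinetochore, was at 468 and 478 CPM in SCR after DMSO and at 149 and 154 after MPS1i. It was at 412 and 421 against 199 and 195 in STINGsg, at 370 and 409 against 191 in both libraries in MAVSsg, and at 440 and 524 against 233 and 234 in DKO. The log2 fold change was -1.64 ± 0.06 in SCR (adjusted p = 4.8e-16) and between -1.08 and -1.03 in the other lines. CENPA, the histone variant that marks the centromere, fell 3.04-fold in SCR (21.7 and 24 CPM against 7.31 and 7.63) and between 2.05-fold and 2.43-fold elsewhere. CENPE, a kinesin that moves chromosomes to the spindle equator, fell 2.74-fold in SCR and between 2.11-fold and 2.22-fold elsewhere.

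The 4 subunits of the NDC80 complex, which binds microtubules, fell in every genotype. NDC80 was 2.21-fold lower and NUF2 2.08-fold lower in SCR, where SPC24 was 1.92-fold and SPC25 1.58-fold lower. In DKO, NDC80 and NUF2 were each 1.8-fold lower, SPC24 1.69-fold and SPC25 1.89-fold. CENPI and CENPK belong to the inner kinetochore. CENPK fell 1.35-fold in SCR and 1.58-fold in DKO. CENPI was at 12.2 and 12.9 CPM against 6.6 and 5.23 in STINGsg, a log2 fold change of -1.09 ± 0.14, and at -0.61 ± 0.12 in SCR. Its call in MAVSsg (-0.61 ± 0.13, adjusted p = 0.00085) was lost without the first MAVSsg DMSO library (-0.38, adjusted p = 0.082).

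The 6 genes of cohesion release and the APC/C fell in every genotype, with medians of -0.94, -0.72, -0.72 and -0.72. CDC20, the activator of the APC/C at anaphase, was at 43.2 and 40.9 CPM against 17 in both libraries in SCR and at 45.5 and 40.7 against 25.5 and 27.2 in DKO. Its log2 fold changes were -1.31 ± 0.08 in SCR, -0.78 ± 0.08 in STINGsg, -0.93 ± 0.08 in MAVSsg and -0.71 ± 0.08 in DKO. PTTG1 (securin) and UBE2C, an E2 enzyme of the APC/C, fell 2.15-fold and 1.92-fold in SCR. PTTG1 may share reads with near-identical copies. SGO1 and SGO2, the shugoshins that protect centromeric cohesion, fell 1.77-fold and 1.9-fold in SCR. ESPL1 (separase), which cuts cohesin, fell 1.32-fold in SCR, 1.5-fold in STINGsg, 1.3-fold in MAVSsg and 1.57-fold in DKO.

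All 7 chromosome structure genes fell in every genotype, with medians of -0.85, -0.67, -0.57 and -0.74. TOP2A, which untangles sister DNA, was at 609 and 636 CPM against 193 and 206 in SCR, at 514 and 528 against 241 and 243 in STINGsg, at 549 and 585 against 254 and 243 in MAVSsg, and at 537 and 610 against 287 and 289 in DKO. The condensin subunit NCAPD2 was at 228 and 224 CPM against 109 and 107 in SCR and at 220 and 213 against 138 and 148 in DKO, a fall of 2.09-fold and 1.51-fold. The other condensin subunits, NCAPG, NCAPH, SMC2 and SMC4, fell between 1.47-fold and 1.81-fold in SCR and between 1.53-fold and 1.8-fold in DKO. NCAPH fell further in DKO (1.67-fold) than in SCR (1.47-fold), but that difference did not pass the test. MKI67, which coats mitotic chromosomes, had a log2 fold change of -0.56 ± 0.05 in MAVSsg and of -0.87 ± 0.05 in DKO, and these 2 effects differed (-0.3 ± 0.07, adjusted p = 0.0028).

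All 6 spindle genes fell in every genotype, with medians of -1.37, -0.98, -1.03 and -0.95. These were the lowest medians of the 8 roles in SCR, MAVSsg and DKO, and in STINGsg the centromere and kinetochore genes had the same median. PRR11, a proline-rich protein of late cell cycle phases, had the largest fall of the 50 genes in SCR and MAVSsg, while CCNB2 had it in STINGsg (2.34-fold) and ASPM in DKO (2.21-fold). It was at 126 and 132 CPM against 24.9 and 24.4 in SCR, at 118 and 112 against 53 and 49.8 in STINGsg, at 115 and 114 against 38.2 and 35.8 in MAVSsg, and at 123 and 122 against 62.4 and 59.9 in DKO. The 4 genotypes after MPS1i did not overlap with each other. The fall was 5.23-fold in SCR (log2 -2.39 ± 0.06, adjusted p = 6.9e-22), 2.25-fold in STINGsg, 3.1-fold in MAVSsg and 2-fold in DKO. SKA2, a kinetochore gene on the opposite strand next to PRR11, had log2 fold changes of -0.92, -0.63, -0.64 and -0.59.

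ASPM, which focuses spindle poles, was at 428 and 464 CPM against 162 and 171 in SCR and at 419 and 491 against 207 and 206 in DKO. It fell 2.68-fold in SCR, 2.15-fold in STINGsg, 2-fold in MAVSsg and 2.21-fold in DKO. HMMR and DLGAP5, which help to assemble the spindle, fell 2.77-fold and 2.48-fold in SCR and 1.93-fold and 1.94-fold in DKO. TROAP fell 2.21-fold in SCR and 1.69-fold in DKO. NUSAP1, which bundles microtubules at chromosomes, had the narrowest range of the 6, from 1.6-fold lower in MAVSsg to 1.87-fold lower in DKO.

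The 5 cytokinesis genes fell in every genotype, with medians of -0.84, -0.67, -0.66 and -0.67. CIT (citron kinase), which keeps the midbody in order, was at 108 and 106 CPM against 35.5 and 33.2 in SCR, at 88.8 and 87.2 against 43.5 and 45.1 in STINGsg, at 95 and 97.3 against 42.8 and 43.1 in MAVSsg, and at 91.3 and 91.9 against 49.6 and 49.7 in DKO. Its fall was 3.12-fold in SCR and 1.84-fold in DKO. PRC1, which bundles midzone microtubules, and RACGAP1, a partner of ECT2 at the midzone, fell 1.83-fold and 1.79-fold in SCR. ANLN, which links actin and septins at the furrow, had log2 fold changes of -0.67 ± 0.05, -0.67 ± 0.06, -0.63 ± 0.06 and -0.67 ± 0.05 in SCR, STINGsg, MAVSsg and DKO.

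ECT2, the exchange factor that activates RhoA at the furrow, was at 472 and 489 CPM against 424 and 446 in SCR. It was at 442 and 430 against 373 and 357 in STINGsg, at 464 and 496 against 417 and 405 in MAVSsg, and at 440 and 496 against 331 and 349 in DKO. Its log2 fold change was -0.14 ± 0.05 in SCR (adjusted p = 0.024) and -0.46 ± 0.05 in DKO (adjusted p = 5e-07). Its fall was the smallest among the 50 genes in SCR and, at -0.22, in MAVSsg, while CDC25B had the smallest difference below 0 in STINGsg and MASTL the smallest fall in DKO. The call in SCR was lost without the second SCR DMSO library (adjusted p = 0.072) and without the first SCR MPS1i library (adjusted p = 0.11). ECT2 and MASTL were the 2 genes whose treatment effect was lower in DKO than in SCR, for ECT2 by -0.32 ± 0.07 (adjusted p = 0.0017).

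**Figure D3:**
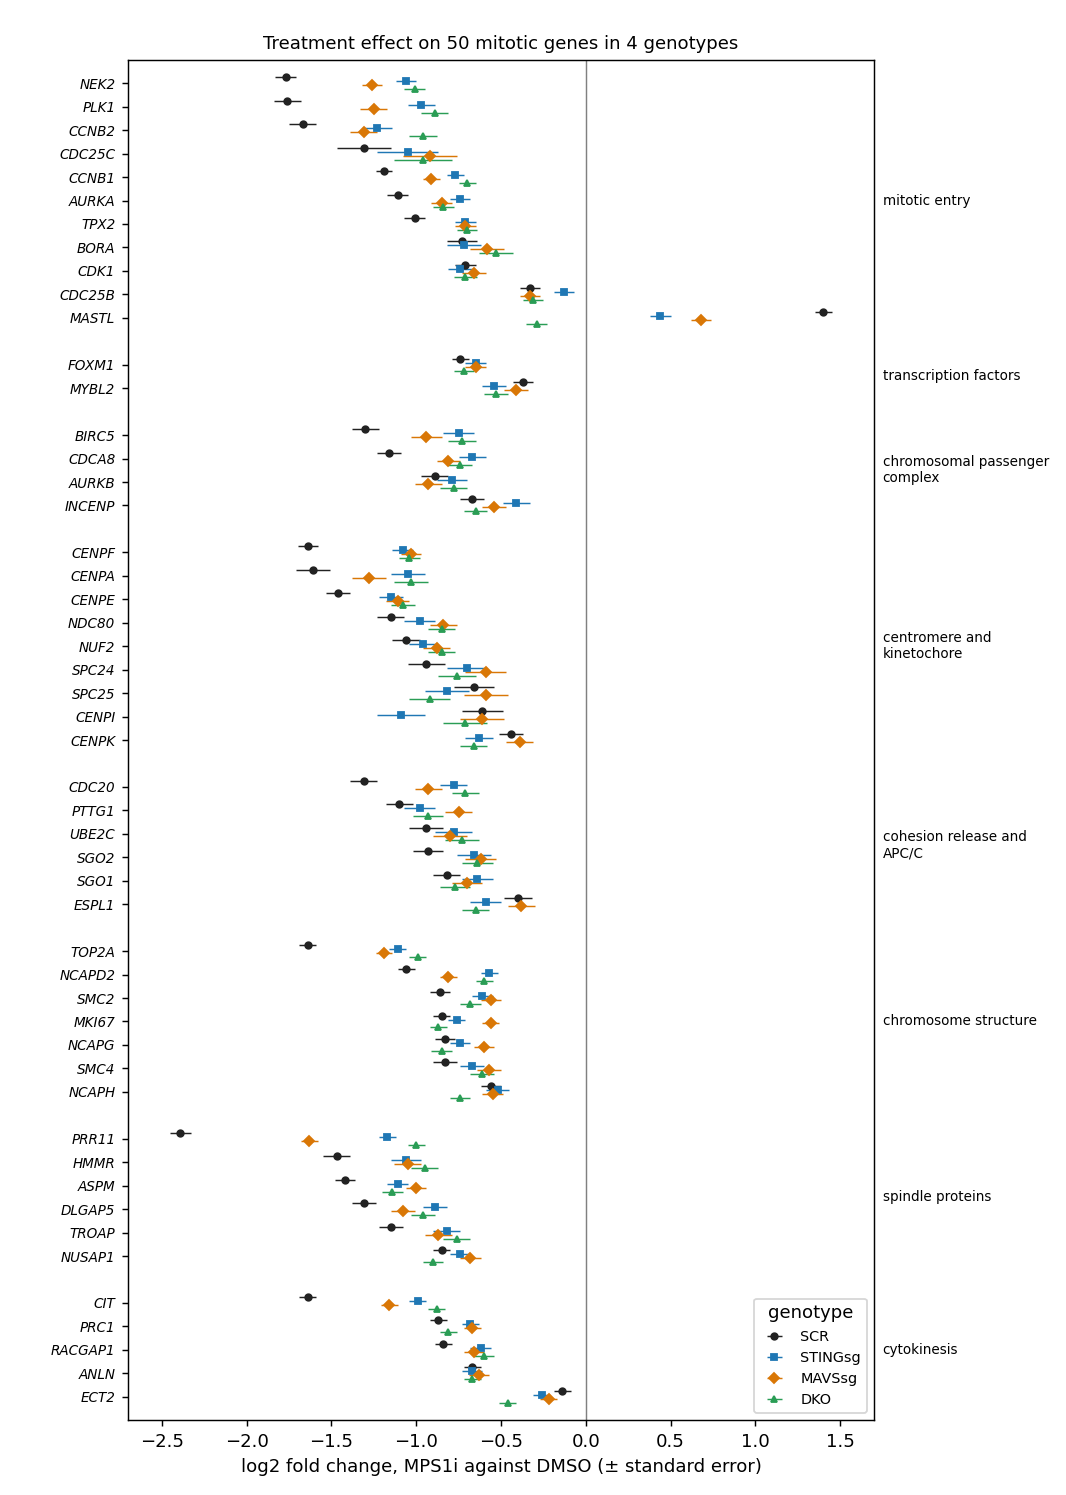
Log2 fold change of MPS1i against DMSO for each of the 50 genes, grouped by role, with 1 symbol per genotype and bars of ± 1 standard error. The SCR symbols reach furthest left for PRR11 at -2.39 and NEK2 at -1.77, the 4 symbols lie close together for CDK1 and ANLN, and MASTL lies right of 0 in all genotypes but DKO.

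For 37 of the 50 genes the largest fall of the 4 genotypes was in SCR, for 3 in STINGsg, for 1 in MAVSsg and for 9 in DKO. This count was not made over all tested genes, whose treatment effects also spread most widely in SCR. Their log2 fold changes had quartiles of -0.29 and 0.4 in SCR and of -0.16 and 0.17 in DKO. STINGsg (-0.22 and 0.24) and MAVSsg (-0.21 and 0.29) lay between. The difference between treatment effects was tested as an interaction term, in which a positive value means a smaller fall than in SCR. The term was positive for 21 genes in STINGsg, where 9.97% of all tested genes were positive and 9.55% negative. It was positive for 17 in MAVSsg (2.92% positive and 4.52% negative among all genes) and for 21 in DKO (13.5% and 14.5%). It was negative for MASTL in all 3 lines and for ECT2 in DKO. The count in MAVSsg was 8 without the first MAVSsg DMSO library, 10 without the first MAVSsg MPS1i library and 10 without the first SCR MPS1i library. The 3 terms share the SCR libraries and are therefore not independent of each other.

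Of the 50 genes, 15 had a smaller fall than in SCR in all 3 lines, 23 had one in at least 1 line and 27 in none. These counts were not made over all tested genes, so whether they exceed a background is not known. The 15 were AURKA, CCNB1, NEK2, PLK1 and TPX2 of mitotic entry, CDCA8 of the passenger complex, CENPE and CENPF at the kinetochore, CDC20, NCAPD2, TOP2A, the spindle genes ASPM, HMMR and PRR11, and CIT. Of these 15, ASPM, CENPF, CIT, NEK2, PRR11 and TOP2A kept all 3 calls in every alternative run. The other 9 lost the call in MAVSsg in at least 1 of 17 alternatives, CDCA8 in 11, CDC20 in 9, AURKA in 8 and CENPE in 7. The number of the 15 that kept the call in MAVSsg was 8 without the first MAVSsg DMSO library and 9 without the first MAVSsg MPS1i or the first SCR MPS1i library. CENPE and HMMR also lost the call in STINGsg, in 7 and 3 alternatives, and AURKA lost the call in DKO in 2. By role, the numbers for STINGsg, MAVSsg and DKO were 6, 5 and 6 of 11 for mitotic entry, 5, 3 and 5 of 6 for spindle genes, and 3, 2 and 3 of 9 for the centromere and kinetochore. They were 2, 1 and 2 of 4 for the passenger complex, 3, 4 and 2 of 7 for chromosome structure, 1, 1 and 1 of 6 for cohesion release and the APC/C, and 1, 1 and 2 of 5 for cytokinesis. Neither transcription factor passed in any line. The log2 fold changes of 9 genes lay within 0.2 of each other in all 4 genotypes.

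PRR11 had the largest positive term in each line, 1.22 ± 0.08 in STINGsg, 0.75 ± 0.08 in MAVSsg and 1.39 ± 0.08 in DKO (adjusted p from 1.8e-13 to 1.6e-07). By adjusted p, CIT came next among the positive terms in STINGsg and DKO, at 0.65 ± 0.07 and 0.76 ± 0.07. PLK1 differed by 0.8 ± 0.11, 0.51 ± 0.11 and 0.87 ± 0.11, and NEK2 by 0.71 ± 0.09, 0.51 ± 0.09 and 0.76 ± 0.09, in STINGsg, MAVSsg and DKO. TOP2A differed by 0.53 ± 0.07, 0.45 ± 0.07 and 0.65 ± 0.07, and CENPF by 0.56 ± 0.09, 0.61 ± 0.09 and 0.6 ± 0.09. NCAPD2 differed by 0.49 ± 0.07 in STINGsg, 0.25 ± 0.07 in MAVSsg and 0.47 ± 0.07 in DKO.

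DKO and STINGsg differed in the treatment effect for MASTL only, where 3.17% of all genes were lower and 1.55% higher in DKO. In edgeR's test at an unadjusted p under 0.05, 5 were lower and 3 higher, beside 1700 and 1184 of all 17950 genes. These unadjusted numbers were near the background. DKO and MAVSsg differed for 7 genes, 3 lower (MASTL, MKI67 and ECT2) and 4 higher (PRR11, CIT, NCAPD2 and PLK1). Of all genes, 6.41% were lower and 4.97% higher, so these numbers were near the background. The split was 3 lower and 8 higher with upper-quartile factors and 3 lower and 7 higher with library totals alone. It was 1 lower and 6 higher without the first MAVSsg DMSO library, 6 and 4 without the first DKO DMSO library, and 2 and 2 without the second MAVSsg MPS1i library. The calls of PLK1, ECT2 and NCAPD2 were lost in 8, 7 and 6 of 17 alternatives, that of MKI67 in 1, and those of MASTL, PRR11 and CIT in 0. Of 16 genes with a promoter entry and a smaller fall in DKO than in SCR, 13 held both CCAAT and TTTGAA in the promoter window. Of the other 27 with an entry, 9 held both, and no test was made of this difference.

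Levels under DMSO were also compared with SCR, and none of the 50 genes was 2-fold lower in any line. In STINGsg, 22 of the 50 were lower and 0 higher than in SCR, where 5.47% of all genes were lower and 4.7% higher. At an unadjusted p under 0.05, edgeR had 38 lower and 0 higher, beside 2274 and 2010 of all 17950 genes. DESeq2 also called 0 of the 50 higher. Those with the smallest adjusted p were CIT (-0.28 ± 0.05), FOXM1 (-0.31 ± 0.05), SGO1 (-0.46 ± 0.09), TOP2A (-0.26 ± 0.05), CCNB1 (-0.24 ± 0.05) and MKI67 (-0.21 ± 0.05). The count was 14 with library totals alone, 10 without the second SCR DMSO library, and 7 when the first or the second STINGsg DMSO library was left out. In MAVSsg, 5 were lower and 0 higher (2.57% and 3.98% of all genes), namely MKI67 (-0.31 ± 0.05), ASPM (-0.28 ± 0.06), CENPF (-0.28 ± 0.06), CENPE (-0.26 ± 0.07) and PRR11 (-0.17 ± 0.05). At an unadjusted p under 0.05, edgeR had 18 lower and 0 higher in MAVSsg, beside 1647 and 1928 of all 17950 genes. DESeq2 called 0 of the 50 higher. Only 1 was lower without the second SCR DMSO or the first MAVSsg DMSO library, and 12 were lower without the low-count filter.

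In DKO under DMSO, 8 of the 50 were lower and 3 higher than in SCR, against 15.3% and 15.8% of all genes, so these numbers were near or under the background. BORA was lower by -0.55 ± 0.09 (18 and 20.1 CPM in SCR, 13.2 and 12.8 in DKO), and SPC24 was higher by 0.52 ± 0.11 (9.69 and 8.67 CPM in SCR, 13.7 and 12.7 in DKO). ANLN (0.27 ± 0.05) and DLGAP5 (0.25 ± 0.06) were the other genes that were higher. CIT (-0.22 ± 0.05) and FOXM1 (-0.24 ± 0.05) were among the 8 that were lower. With library totals alone the split was 5 lower and 6 higher. The number lower was 4 without the first DKO DMSO library, 5 without the second SCR DMSO library and 13 without the second DKO DMSO library.

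Levels after MPS1i were compared in the same way. In STINGsg, 17 were higher and 9 lower (15.8% and 17.3% of all genes), in MAVSsg 14 higher and 1 lower (7.46% and 8.47%), and in DKO 27 higher and 9 lower (22.6% and 22.4%). The numbers lower were near or under the background in all 3 lines. The gene that was lower in all 3 was MASTL, at -0.97 ± 0.05, -0.63 ± 0.05 and -1.66 ± 0.06, while PRR11 was higher at 1.06 ± 0.06, 0.59 ± 0.06 and 1.31 ± 0.06. With library totals alone the numbers were 19 higher and 5 lower in STINGsg, 22 and 1 in MAVSsg, and 31 and 4 in DKO. When the first or the second STINGsg MPS1i library was left out, 11 were higher in STINGsg, and 5 were lower without the second. In MAVSsg 9 were higher without the first SCR MPS1i or the first MAVSsg MPS1i library, and in DKO 5 were lower without the first DKO MPS1i library.

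Related genes outside the 50 were read from further lists. Over all tested genes, 24% fell in SCR, 13.9% in STINGsg, 16.3% in MAVSsg and 8.22% in DKO. The shares that rose were 26%, 15.5%, 17.1% and 6.53%. Of 23 other G2 and mitosis genes, 20 fell and 1 rose in SCR, 21 fell and 1 rose in STINGsg, 20 fell and 1 rose in MAVSsg, and 21 fell in DKO, with medians of -0.99, -0.78, -0.77 and -0.69. GTSE1 (-1.29 ± 0.06 in SCR and -0.92 ± 0.06 in DKO), CCNA2, which encodes cyclin A2 (-1.08 ± 0.06 and -0.88 ± 0.06), and CEP55 of the midbody (-1.43 ± 0.06 and -0.9 ± 0.06) fell in all 4. The gene that rose was CDC25A, the phosphatase that also acts at the start of S phase, at 0.71 ± 0.1, 0.48 ± 0.11 and 0.45 ± 0.11 in SCR, STINGsg and MAVSsg. In DKO, CDC25A was at 9.37 and 8.97 CPM against 10.1 and 9.41 (adjusted p = 0.63).

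Of 11 spindle checkpoint genes, 8 fell in SCR, 9 in STINGsg, 8 in MAVSsg and 9 in DKO, and 0 rose in edgeR's test, also at an unadjusted p under 0.05. TTK, the target of the drug, was at 61.4 and 66.2 CPM against 31.4 and 36 in SCR. BUB1B (-1.28 ± 0.07 in SCR, -0.87 ± 0.07 in DKO) and BUB1 (-0.5 ± 0.05 and -0.76 ± 0.05) fell in all 4 genotypes. Of 23 other centromere and kinetochore genes, 17 fell and 3 rose in SCR, 19 fell in STINGsg, 16 fell and 1 rose in MAVSsg, and 20 fell in DKO, with medians between -0.49 and -0.38. SKA1, SKA2 and HJURP fell in all 4, and CENPQ, MIS12 and DSN1 rose in SCR by 0.39, 0.28 and 0.41.

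Medians nearer to 0 were found for lists of complexes that also act outside mitosis. Of 16 APC/C subunits, 8 fell and 1 rose in SCR (24% and 26% of all genes). In STINGsg, MAVSsg and DKO, 3, 4 and 3 fell (13.9%, 16.3% and 8.22% of all genes). The medians of the 16 lay between -0.18 and -0.08. ANAPC16 fell in all 4 genotypes (-0.74 ± 0.05 in SCR and -0.19 ± 0.06 in DKO). Of 13 cohesin and condensin II genes, 9, 8, 9 and 10 fell and 1 rose in MAVSsg, led by NCAPG2 (-0.91 ± 0.05 in SCR). Of 21 genes of the DREAM, MuvB and E2F regulators, 10, 12, 9 and 10 fell and 4, 1, 2 and 1 rose. The numbers that rose were near or under the shares of all genes, 26%, 15.5%, 17.1% and 6.53%. RBBP4, RBL1 and LIN54 fell in all 4 genotypes. E2F1, E2F3, E2F4 and E2F6 rose in SCR by 0.39, 0.31, 0.36 and 0.36, and E2F3 and E2F4 rose in MAVSsg by 0.2 and 0.24. CDKN1A (p21) rose in STINGsg by 0.32 ± 0.11 (adjusted p = 0.049) and in DKO by 0.4 ± 0.11 (adjusted p = 0.028), and was at 0.13 ± 0.11 in SCR (adjusted p = 0.35).

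Genes of S phase did not move with the 50 in SCR. Of 32, 6 fell and 17 rose in SCR, 7 fell and 1 rose in STINGsg, 6 fell and 7 rose in MAVSsg, and 26 fell and 1 rose in DKO. Of all genes, 24%, 13.9%, 16.3% and 8.22% fell and 26%, 15.5%, 17.1% and 6.53% rose. The numbers that fell in SCR and MAVSsg, and that rose in MAVSsg, were near these shares. The medians of the 32 were 0.17, -0.1, 0.07 and -0.37. RRM1, POLA1 and PRIM1 fell in all 4 genotypes, RRM1 with -0.62 ± 0.05 in SCR and -0.52 ± 0.05 in DKO. CCNE2, which encodes cyclin E2, rose by 1.18 ± 0.11 in SCR (6.2 and 7.17 CPM against 14.6 and 15.6) and was at 9.91 and 10.3 against 11.2 and 9.98 CPM in DKO (adjusted p = 0.75). The interaction term of DKO against SCR was negative for 23 of the 32 and positive for 0, against 14.5% and 13.5% of all genes. It was positive for 0 also at an unadjusted p under 0.05 in edgeR's test, where 3231 of all 17950 genes were positive. The same term was negative for 2 and positive for 21 of the 50 genes. Under DMSO, 19 of the 32 S phase genes were already higher in DKO than in SCR and 0 lower, against 15.8% and 15.3% of all genes. After MPS1i, 2 of the 32 were higher in DKO and 18 lower, against 22.6% and 22.4%. The interaction term of the S phase genes holds both differences.

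**Figure D4:**
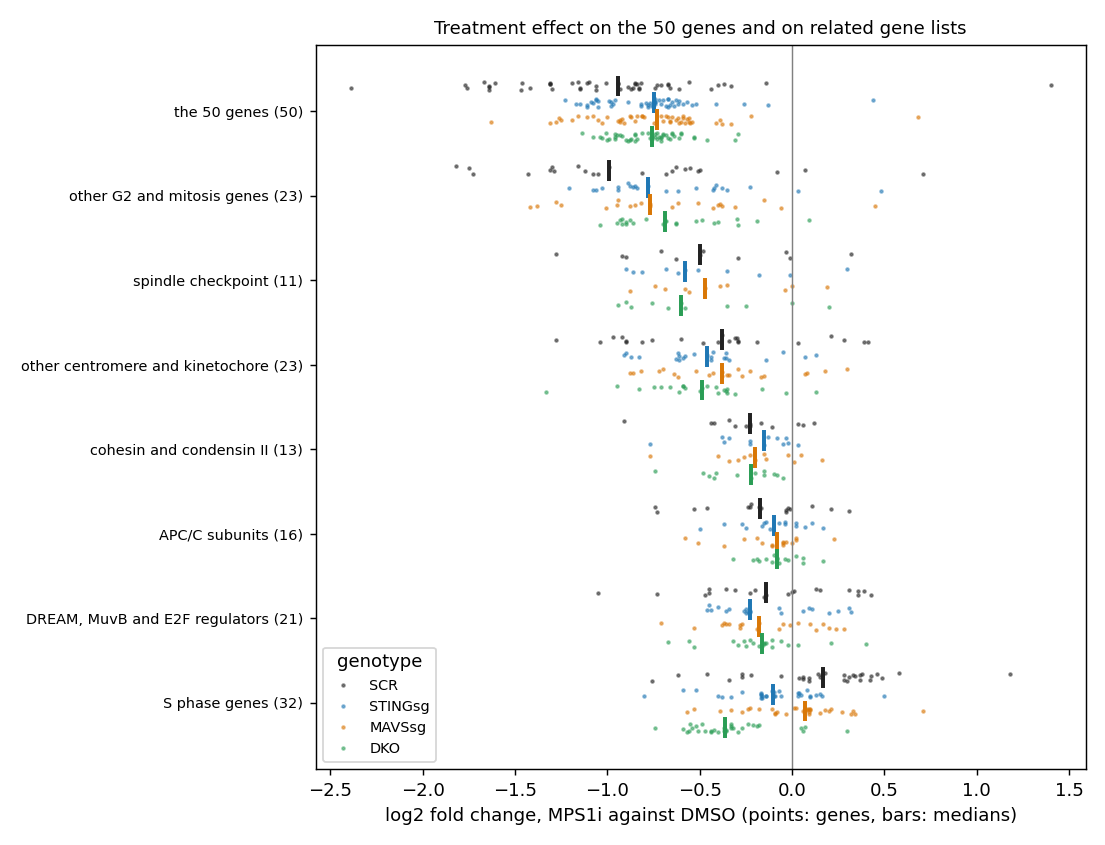
Log2 fold change of MPS1i against DMSO for the 50 genes and for 7 related lists, with 1 point per gene, 1 colour per genotype and a bar at the median. The 50 genes and the other G2 and mitosis genes lie mostly left of 0, and the S phase list has its median at 0.17 in SCR and at -0.37 in DKO.

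In the deposited coordinates the 50 genes lie on 19 chromosomes, with 6 each on chromosomes 1 and 12 and 5 each on chromosomes 5 and 20. Of the 50, 16 overlap a tested gene and 13 of these overlap one on the opposite strand. The library kit was stranded per the labels' protocols, but the strand setting of the counting is not given in the sources used here, so reads of such partners cannot be told apart with certainty.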

How the data were processed

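Raw counts per gene and library, 1 column each, were deposited by the authors with no normalization, per the file headers. The submitters' processing notes name Trim Galore, Trimmomatic and cutadapt for trimming tools, STAR for alignment (GRCh38/hg38) and featureCounts. Versions, the strand setting and the handling of multiply mapped reads are not given in the sources used here. The library kit was stranded and took poly(A) RNA, per the labels' protocols.

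Counts were analysed in R 4.3.3 with edgeR 4.0.16. Genes were kept by filterByExpr (minimum count 10, minimum total 15) and scaled by TMM. A model with 1 mean for each of 8 groups left 8 residual degrees of freedom, and 15 contrasts were tested by the quasi-likelihood test (two-sided, robust), each adjusted by the Benjamini-Hochberg method over all 17950 genes and called at an adjusted p under 0.05. The standard error beside a log2 fold change is its size divided by the square root of F. CPM use the TMM-scaled totals. The fit was tested on simulated data. Alternatives were RLE, upper-quartile and unscaled library totals, other filters, thinning to the smallest library, a fit of only the compared groups, a replicate block, DESeq2 1.42.0, and leaving out each library.

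The 50 genes, the related lists, the markers and the tests were chosen with earlier results of these data known. Genes given in full were, per role, the 3 with the smallest adjusted p in SCR, genes not called or called the other way, and up to 6 per interaction or DMSO contrast. From each other list up to 3 were named by the smallest largest adjusted p, with up to 3 that moved the other way. Among the DREAM, MuvB and E2F regulators, all that rose were named. Residuals of libraries with the same replicate number correlated at -0.05 to 0.09 over 28 pairs of groups, 0 of them over 0.1, so replicates were not treated as paired. Promoters came from a RefSeq table (GRCh38.p14), by symbol and nearest start. TPX2, AURKA, TROAP, BIRC5, FOXM1, UBE2C and RACGAP1 had no entry matched. The level of 1 immune marker is not reported here.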

Additional observations from a re-analysis of the deposited data

Results flagged for a closer look

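The treatment effect differed between genotypes by an interaction term of edgeR's quasi-likelihood test for the following genes, up to 6 per pair of genotypes, each given as the difference between log2 fold changes. STINGsg minus SCR was 1.22 for PRR11, -0.96 for MASTL, 0.65 for CIT, 0.71 for NEK2, 0.49 for NCAPD2 and 0.53 for TOP2A. MAVSsg minus SCR was 0.75 for PRR11, -0.72 for MASTL, 0.61 for CENPF, 0.48 for CIT, 0.45 for TOP2A and 0.51 for NEK2. DKO minus SCR was -1.69 for MASTL, 1.39 for PRR11, 0.76 for CIT, 0.76 for NEK2, 0.65 for TOP2A and 0.87 for PLK1. DKO minus STINGsg was -0.73 for MASTL. DKO minus MAVSsg was -0.96 for MASTL, 0.63 for PRR11, -0.3 for MKI67, 0.28 for CIT, 0.22 for NCAPD2 and -0.24 for ECT2. The difference for ECT2 between DKO and MAVSsg had an adjusted p of 0.035, which ran from 0.0012 to 0.24 over the alternatives. That for NCAPD2 was 0.034 and ran from 0.01 to 0.18. The differences for MASTL kept their direction and passed the test in every alternative run.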

How the results depend on the processing

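The counts of the 50 genes that fell after MPS1i held in all alternatives run, at 48 to 49 in SCR, STINGsg and MAVSsg and 50 in DKO, and no value changed its direction. Counts between lines moved more, and the cause was not tested. With library totals alone, members lower under DMSO were 14 in STINGsg and 5 in DKO, and 6 were higher in DKO. After MPS1i the same setting gave 5 lower in STINGsg, 22 higher in MAVSsg, 4 lower in DKO, and 7 higher in DKO than in MAVSsg by the interaction term, which was 8 with upper-quartile factors. Without the filter, 12 were lower in MAVSsg under DMSO. Thinned libraries gave 5 lower in DKO under DMSO and 11 higher in STINGsg after MPS1i. With only the compared groups, 4 were lower in DKO under DMSO, and 968 of all genes fell and 661 rose after MPS1i in DKO, where the pooled fit had 1475 and 1173.

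Leaving out 1 library at a time gave these ranges. Under DMSO, 7 to 21 were lower in STINGsg, 1 to 5 in MAVSsg and 4 to 13 in DKO. After MPS1i, 5 to 8 were lower and 11 to 13 higher in STINGsg, 9 to 10 higher in MAVSsg and 5 to 8 lower in DKO. Interaction terms were negative for 1 to 2 in STINGsg and positive for 8 to 14 in MAVSsg. DKO against STINGsg was negative for 1 to 2, and DKO against MAVSsg was negative for 1 to 6 and positive for 2 to 6. Over all genes, 1639 to 2022 fell and 1646 to 2180 rose in STINGsg, and 870 to 1802 fell and 563 to 1318 rose in DKO. Where this left a group with 1 library, that library was assumed to vary like the others. The replicate block moved no count of the 50 genes by more than 1.5 times. After MPS1i, it gave 49 lower in SCR, 48 in STINGsg, 49 in MAVSsg and 50 in DKO. The shift of the median over all genes with another scaling stayed under 0.1.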
